A study of Mus musculus with 18 samples.

Results

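Heat shock genes whose proteins work in the cytosol and the mitochondria were followed in mouse lung fibroblasts that had entered a collagen gel and in those that had stayed on top of it. The genes were chosen by symbol and are Hspa8, Hsph1, Dnaja1, Dnajb1, Hsp90aa1, Hsp90ab1, Hspb1, Hspb8, Hspa9 and Hspd1. A gene was read from the brightest probe set that carries its symbol alone, which gave values for 9 of the 10 genes among 19938 genes on the array. Hsp90ab1 had no such probe set in the annotation used here and was not analysed. MLg 2908 cells are an established fibroblast line from newborn mouse lung (strain ddY, genotype WT, gender not determined), so all samples are cultures of 1 line. The cells were plated on a 3D collagen gel, and RNA of both fractions, invading and non-invading, was hybridized to Affymetrix Gene ST arrays after 72 h (4 samples per fraction) or 96 h (5 samples per fraction). For all 18 samples the treatment entry mentions TGFB1 next to the assay, whereas the titles mention no treatment and the legends of the study mark the cells as non-treated. A heatmap legend of the study presents each column as an independent experiment, while its receptor figure names a paired t-test for values of these arrays. The files name no batch, so the time point and any batch of processing cannot be told apart.

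All values are RMA signals on the log2 scale, and a difference between 2 groups is a log2 ratio, given with its standard error (SE). A gene passed the test at an adjusted p under 0.10 in limma, with the Benjamini-Hochberg adjustment taken across the 35556 probe sets of the array. The median signal of a sample was 6.46 to 6.65, and samples of 1 group correlated at 0.991 to 0.996 over probe sets. By their mean signal the markers bore out the fibroblast label. Over 12 fibroblast genes the mean signal of a sample was 11.7 to 12.0 in every group, with 1 of the 12 genes below the median gene. The same mean was 5.62 to 6.05 over 7 epithelial genes, 5.02 to 5.40 over 5 endothelial genes and 5.49 to 5.90 over 6 leukocyte genes. Over 4 mesothelial genes it was 7.10 to 7.31 in invading and 7.44 to 7.65 in non-invading samples, with 3 of the 4 genes below the median gene. Of these 4 genes 2 passed as lower and 0 as higher in invading cells at each time. Their log2 ratios reached -0.71 at 72 h and -0.86 at 96 h, where 13.5% and 14.7% of all genes were lower. Of the 12 fibroblast genes 1 was higher and 4 were lower in invading cells at 72 h, and 0 and 4 at 96 h. Of the 7 epithelial genes 1 was higher at 72 h and 3 at 96 h, and 0 were lower. Of the 6 leukocyte genes 0 and 1 were higher and 0 lower. Of all genes 13% and 16.7% were higher at these times. The part of these marker differences in the results was not tested. In RNA from a whole fraction, more cells with a transcript and more transcript per cell cannot be told apart.

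Heat shock proteins are chaperones, which bind unfolded or aggregating proteins and help them fold, reach their compartment or be degraded. HSP70 proteins (Hspa8 in the cytosol, Hspa9 in mitochondria) bind short unfolded stretches in a cycle driven by ATP, J-domain proteins (Dnaja1, Dnajb1) hand substrates to them and start ATP hydrolysis, and exchange factors such as Hsph1 let the substrate go. HSP90 (Hsp90aa1, Hsp90ab1) matures kinases and steroid receptors, small heat shock proteins (Hspb1, Hspb8) hold aggregating proteins without ATP, and the mitochondrial chaperonin encoded by Hspd1 folds imported proteins in a closed chamber capped by Hspe1. In fibroblasts Hspb1 also binds actin, and Hspb8 works with Bag3 in the removal of damaged cytoskeletal proteins. Heat shock factors, mainly Hsf1, turn most of these genes on through heat shock elements, arrays of short inverted units in their promoters.

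Promoter windows from RefSeq (GRCm38.p6), each reaching from 250 bases before to 50 bases after an annotated start, were given for 6 of the 9 measured genes. Hspa8, Hsp90aa1 and Hspa9 had no window here. A heat shock element of 3 units was spelled GAANNTTCNNGAA or TTCNNGAANNTTC and read on both strands. It was present in windows of Hspd1 and Hsph1, and in 0.662% of all genes with a window. A pair of units, GAANNTTC or TTCNNGAA, which every longer match also holds, was found for 5 of the 6 genes (not Dnajb1) and for 17% of all genes. By window, 6 of 11 windows of these genes held a pair (15.1% of all windows) and 3 of 11 a 3-unit match (0.603%). The Hspd1 window printed below held 2 overlapping 3-unit matches, the first from base -144 and the second from base -139 of its start. The window of the other annotated Hspd1 start, chr1:55088194-55088493, held no match of either kind. In the printed Hsph1 window the 3-unit match began at base 37 after its start, and a separate pair began at base -33. Windows of Hspb8 and Hspb1 held only pairs, and of the Dnaja1 windows 1 held a pair and the others no match. Those of Dnajb1 held no match of either kind. Hspb1 is printed as an example of a window with pairs alone, from bases -117 and -97. Capitals mark the matched letters in these windows, which are written in the direction of the gene.
Hspd1, chr1:55087883-55088182, minus strand: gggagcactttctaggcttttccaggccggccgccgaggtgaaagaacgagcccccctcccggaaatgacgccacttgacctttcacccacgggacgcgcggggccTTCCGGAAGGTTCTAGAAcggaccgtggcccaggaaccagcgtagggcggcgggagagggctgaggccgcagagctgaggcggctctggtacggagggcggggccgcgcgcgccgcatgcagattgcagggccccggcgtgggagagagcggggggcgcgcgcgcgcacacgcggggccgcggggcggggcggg
Hsph1, chr5:149636287-149636586, minus strand: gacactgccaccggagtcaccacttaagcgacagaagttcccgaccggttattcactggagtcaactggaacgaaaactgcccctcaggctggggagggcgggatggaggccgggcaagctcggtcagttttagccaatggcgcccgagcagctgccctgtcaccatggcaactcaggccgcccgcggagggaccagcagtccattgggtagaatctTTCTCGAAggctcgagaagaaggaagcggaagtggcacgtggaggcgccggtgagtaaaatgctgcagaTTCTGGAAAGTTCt
Hspb1, chr5:135887669-135887968, plus strand: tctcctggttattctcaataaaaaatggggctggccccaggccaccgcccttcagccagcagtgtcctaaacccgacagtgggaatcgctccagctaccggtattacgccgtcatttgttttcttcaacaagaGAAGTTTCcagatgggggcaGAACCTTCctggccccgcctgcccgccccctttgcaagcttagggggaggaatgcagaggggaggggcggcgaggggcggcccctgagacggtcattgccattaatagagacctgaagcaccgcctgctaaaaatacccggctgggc
A match of letters is not a measured binding site, and no binding was measured in these samples. The part of these matches in the changes between groups was not tested.

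The number of a probe set follows the position of its target along the chromosomes, and this made the reading of 5 genes uncertain. For each probe set the 10 nearest numbered ones with 1 symbol on each side were placed by the RefSeq annotation. Hspa9 has 1 probe set, which was not placed. The brightest probe sets of Dnajb1, Hspb8 and Hsph1 lay among genes of their own chromosome. Those of Hspa8, Dnaja1, Hsp90aa1, Hspb1 and Hspd1 lay among genes of another one, for example that of Hspd1 (a gene on chromosome 1) with 19 of 20 neighbours on chromosome 11, and each of these genes also had a probe set numbered on its own chromosome. Among 126 other chaperone, heat shock factor and immediate early genes with a placed probe set, all but 3 were read from their own chromosome. Whether a probe set numbered elsewhere reads the gene or a near-identical copy was not tested, so both readings are given for these 5 genes. Over the 18 samples they correlated at 0.991 for Hsp90aa1, 0.986 for Hspb1, 0.914 for Hspd1, 0.840 for Hspa8 and 0.703 for Dnaja1. This comparison was chosen after the data had been seen.

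Between 72 and 96 h the heat shock genes rose in the invading fraction. Of the 9 measured genes 7 rose and 0 fell by limma, and those 7 are also the genes with an unadjusted p under 0.05, while of all genes 34.8% passed in either direction (18.2% rose and 16.7% fell). Hspd1 rose the most, by 0.78 ± 0.068 (SE), a ratio of 1.72, and Hsph1 followed with 0.59 ± 0.098, a ratio of 1.51. Dnaja1, Dnajb1, Hsp90aa1, Hspa9 and Hspa8 rose by 0.13 to 0.46. In the non-invading fraction 4 genes rose and 1 fell, where 27.6% of all genes passed (15.4% rose and 12.2% fell). The median difference of the 9 genes was 0.34 in the invading and 0.09 in the non-invading fraction, against -0.03 and -0.02 over all genes. With the probe sets numbered on the gene's own chromosome (for Hspa9 its only probe set), 7 genes again rose in the invading fraction. In the non-invading one 3 rose and 1 fell.

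Between the fractions some of the genes were higher and others lower in invading cells. At 72 h 1 gene was higher and 2 were lower in invading cells, where 26.5% of all genes passed (13% higher and 13.5% lower). At 96 h 5 genes were higher and 1 was lower, where 31.4% of all genes passed (16.7% higher and 14.7% lower). The median difference of the 9 genes was 0.01 at 72 h and 0.26 at 96 h, against 0.04 and 0.02 over all genes. None of the 9 passed the test of the difference between the 2 invasion effects, which 0.015% of all genes passed in limma, and 3 (Dnaja1, Hsp90aa1 and Hspd1) had an unadjusted p under 0.05. A call at 1 time and not at the other is therefore not shown to be a difference between the times. The comparisons of fractions and of times share samples, and their values are given side by side below.

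**Figure D1:**
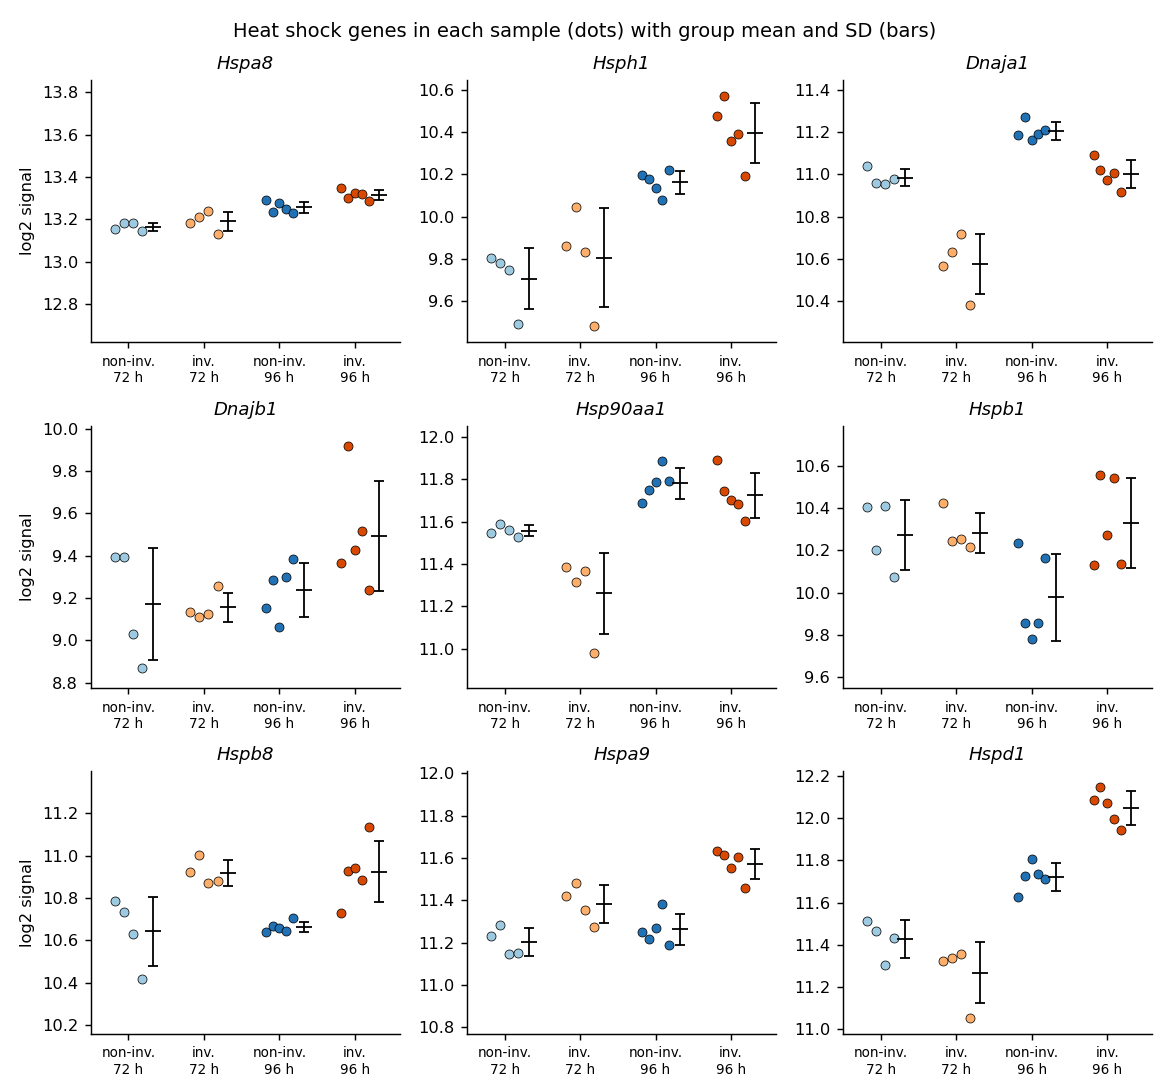
Log2 signal of the 9 heat shock genes in every sample, by fraction and time (non-inv., non-invading; inv., invading), with the group mean and SD as a bar beside the dots. Each vertical axis spans the same log2 range. Hspd1 and Hsph1 at 96 h lie above all samples of 72 h, whereas Hspb8 differs between fractions and not between times.

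Hspa8 encodes the constitutive cytosolic HSP70, and by its brightest probe set it rose with time in the invading fraction by a small amount. Its samples read 13.15, 13.18, 13.18 and 13.14 in the non-invading fraction at 72 h. They read 13.18, 13.21, 13.24 and 13.13 in the invading fraction. At 96 h the non-invading samples read 13.29, 13.23, 13.28, 13.25 and 13.23 and the invading ones 13.35, 13.30, 13.32, 13.32 and 13.29. Every sample of 96 h thus lay above every sample of 72 h of its own fraction. The rise was 0.13 ± 0.040 (adjusted p = 0.0288) in the invading fraction and 0.09 ± 0.040 (adjusted p = 0.12) in the non-invading one. The probe set numbered on its own chromosome gave a larger rise that passed in both fractions, 0.27 ± 0.067 (adjusted p = 0.00702) and 0.26 ± 0.067 (adjusted p = 0.0115). The fractions differed by 0.03 ± 0.056 at 72 h and 0.06 ± 0.042 at 96 h, neither past the test, with 95% intervals of -0.10 to 0.15 and -0.03 to 0.15. The call in the invading fraction was lost when only the compared groups entered the fit (adjusted p = 0.103). The rise in the non-invading fraction passed in 6 of 12 other settings, the own-chromosome probe set among them. At 96 h the difference between fractions passed in 2 of 12. These were arrays centred on their median (adjusted p = 0.0123) and an intensity trend with robust estimation (0.085).

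Hspa8 also hosts small nucleolar RNAs of the Snord14 family in its introns. Between fractions, 2 probe sets that carry both Snord14 symbols and Hspa8 behaved unlike the gene. At 72 h they were lower in invading cells by 0.99 ± 0.196 each, with adjusted p of 0.00858 and 0.00848. At 96 h the log2 differences were -0.80 ± 0.140 and -0.79 ± 0.140, with adjusted p of 0.00179 and 0.00182. All invading samples lay below all non-invading ones at both times, while none of the 3 probe sets with the Hspa8 symbol alone passed the test between fractions. Over time in the invading fraction these shared probe sets rose, as the gene did, by 0.49 ± 0.178 (adjusted p = 0.0556) and 0.50 ± 0.177 (adjusted p = 0.0494). In the non-invading fraction they changed by 0.29 ± 0.178 (adjusted p = 0.279) and 0.30 ± 0.177 (adjusted p = 0.27). They were not used for the gene.

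Hsph1, the HSP110 that releases substrate from HSP70, rose over time in both fractions. Non-invading samples read 9.81, 9.78, 9.75 and 9.49 at 72 h and 10.20, 10.18, 10.14, 10.08 and 10.22 at 96 h. Invading samples read 9.86, 10.05, 9.83 and 9.48 at 72 h and 10.48, 10.57, 10.36, 10.39 and 10.19 at 96 h. In both fractions the lowest sample of 96 h was above the highest of 72 h, as for 5 of the 9 genes in the invading fraction (23.6% of all genes did not overlap, in either direction) and 5 in the non-invading one (20%). The rise was 0.46 ± 0.098 in non-invading (adjusted p = 0.00335) and 0.59 ± 0.098 in invading cells (adjusted p = 0.000264), ranks 96.5 and 97.4 on a percentile scale of all genes. At 96 h Hsph1 was also higher in invading cells, by 0.24 ± 0.070 (adjusted p = 0.0279), with overlap between the fractions, and at 72 h the difference was 0.10 ± 0.123 (adjusted p = 0.619). Replicate 4 was the lowest sample of both fractions at 72 h.

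Dnaja1, a farnesylated J-domain partner of HSP70, was lower in invading cells at both times by its brightest probe set and rose with time in both fractions. Non-invading samples read 11.04, 10.96, 10.96 and 10.98 at 72 h and 11.19, 11.27, 11.16, 11.19 and 11.21 at 96 h. Invading samples read 10.57, 10.64, 10.72 and 10.38 at 72 h and 11.09, 11.02, 10.97, 11.01 and 10.92 at 96 h. No invading sample reached the non-invading samples of its time. At 72 h the difference was -0.41 ± 0.080 (adjusted p = 0.0081) and at 96 h -0.20 ± 0.049 (adjusted p = 0.0103). Over time the gene rose by 0.43 ± 0.060 in invading (adjusted p = 5.83e-05) and 0.22 ± 0.060 in non-invading cells (adjusted p = 0.0149). The probe set numbered on the gene's own chromosome read lower, 9.03 to 9.67, and did not separate the fractions, with -0.11 ± 0.095 (adjusted p = 0.468) at 72 h and -0.11 ± 0.108 (adjusted p = 0.503) at 96 h. It rose by 0.26 ± 0.108 over time in each fraction, which passed in the invading (adjusted p = 0.0891) and not in the non-invading one (adjusted p = 0.101). Another probe set, which carries both the Mir207 and the Dnaja1 symbol, was not used for the gene and passed in no comparison. Between fractions that probe set gave 0.13 ± 0.089 at 72 h and 0.01 ± 0.081 at 96 h. Over time it gave -0.16 ± 0.086 in invading and -0.05 ± 0.086 in non-invading cells. The lower level of Dnaja1 in invading cells is thus a result of 1 probe set, and at 96 h it was also lost when arrays were centred on their median (-0.08, adjusted p = 0.205).

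Dnajb1, the J-domain protein that is most strongly induced by heat, varied widely between replicates, and no comparison separated its groups. Non-invading samples read 9.39, 9.39, 9.03 and 8.87 at 72 h and 9.15, 9.29, 9.06, 9.30 and 9.39 at 96 h. Invading samples read 9.14, 9.11, 9.13 and 9.26 at 72 h and 9.36, 9.92, 9.43, 9.52 and 9.24 at 96 h. The groups overlapped in all 4 comparisons. The rise in the invading fraction, 0.34 ± 0.126, passed the test (adjusted p = 0.0621), but it was lost without replicate 2 of the invading samples at 96 h (adjusted p = 0.148) and without replicate 1, 2 or 3 at 72 h (adjusted p = 0.107 to 0.126), as well as when the values were quantile normalized again (0.27, adjusted p = 0.133). At 96 h invading exceeded non-invading cells by 0.26 ± 0.117 (adjusted p = 0.133). This passed in 4 of 12 other settings, with adjusted p from 0.0194 (arrays centred on their median) to 0.0987, and without invading replicate 5 (0.0702). The difference was -0.01 ± 0.122 at 72 h (adjusted p = 0.955) and the change with time in non-invading cells 0.07 ± 0.126 (adjusted p = 0.769).

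Hsp90aa1, the stress-inducible cytosolic HSP90, was lower in invading cells at 72 h and no longer distinguishable from non-invading cells at 96 h. Non-invading samples read 11.55, 11.59, 11.56 and 11.53 at 72 h and 11.69, 11.75, 11.79, 11.89 and 11.80 at 96 h. Invading samples read 11.39, 11.31, 11.37 and 10.98 at 72 h and 11.89, 11.75, 11.70, 11.69 and 11.60 at 96 h. At 72 h all invading samples were below all non-invading ones, one of the 3 genes without overlap at that time (24.8% of all genes), and at 96 h the samples overlapped. The difference was -0.30 ± 0.094 (adjusted p = 0.0551) at 72 h and -0.06 ± 0.063 (adjusted p = 0.561; 95% interval -0.19 to 0.08) at 96 h. Over time Hsp90aa1 rose by 0.46 ± 0.077 in invading (adjusted p = 0.000266) and 0.22 ± 0.077 in non-invading cells (adjusted p = 0.0497). All 3 of its probe sets passed in the same direction at 72 h (-0.27 to -0.30) and over time in the invading fraction (0.45 to 0.63). The call at 72 h was lost when arrays were centred on their median (adjusted p = 0.142) and without replicate 2 or 3 of the non-invading samples (adjusted p = 0.111 and 0.112). The rise in non-invading cells was lost when the values were quantile normalized again (adjusted p = 0.188) and without replicate 4 of the non-invading samples at 96 h (adjusted p = 0.1).

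**Figure D2:**
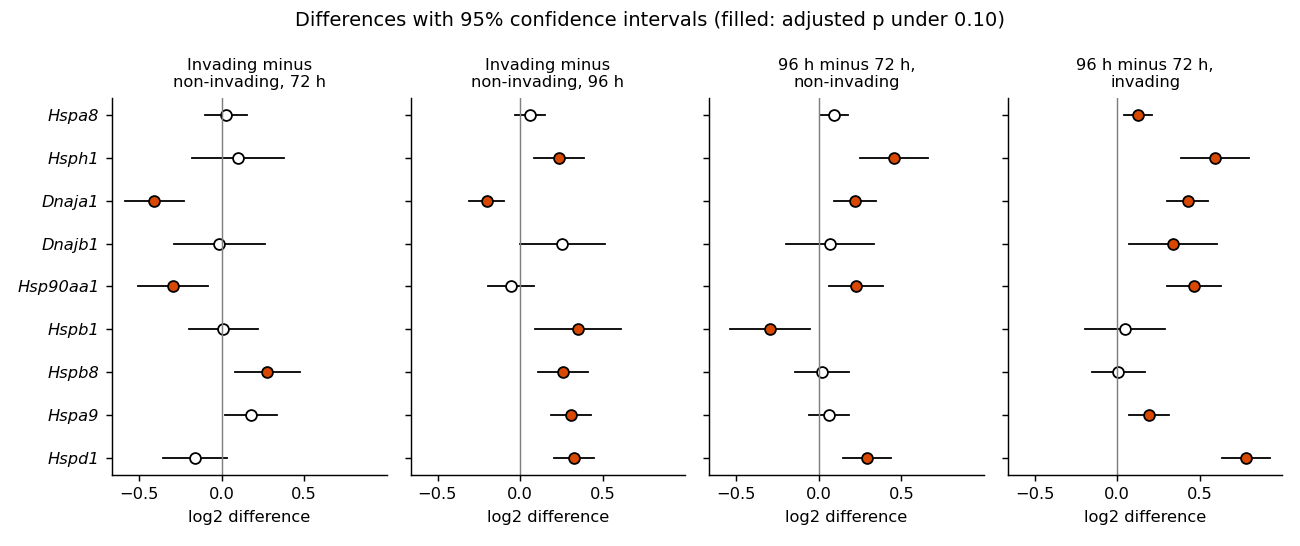
Log2 differences (horizontal axis) of the 9 heat shock genes in the 4 comparisons, with 95% confidence intervals from limma. Filled dots passed at an adjusted p under 0.10. In the invading fraction 7 genes rose with time, led by Hspd1 at 0.78, while between fractions Dnaja1 lies left of 0 and Hspb8 right of 0 at both times.

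Hspb8, a small heat shock protein that acts with Bag3, was higher in invading cells at both times and did not change between them. Non-invading samples read 10.78, 10.74, 10.63 and 10.42 at 72 h and 10.64, 10.67, 10.66, 10.64 and 10.70 at 96 h. Invading samples read 10.92, 11.00, 10.87 and 10.88 at 72 h and 10.73, 10.93, 10.94, 10.89 and 11.14 at 96 h. The invading samples lay above the non-invading ones without overlap at each time. The difference was 0.28 ± 0.087 (adjusted p = 0.0542) at 72 h and 0.26 ± 0.069 (adjusted p = 0.0155) at 96 h. The changes with time were 0.02 ± 0.077 (95% interval -0.14 to 0.18) in non-invading and 0.01 ± 0.077 (-0.16 to 0.17) in invading cells, with adjusted p of 0.885 and 0.967. The call at 72 h was lost without invading replicate 1 or 2 or non-invading replicate 3 or 4 (adjusted p = 0.104 to 0.131), while the call at 96 h was kept without any single sample (adjusted p up to 0.0367).

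Hspb1, the small heat shock protein best known as HSP27 or HSP25, was higher in invading cells at 96 h, when its level in non-invading cells had fallen. Non-invading samples read 10.41, 10.20, 10.41 and 10.08 at 72 h and 10.24, 9.86, 9.78, 9.86 and 10.16 at 96 h. Invading samples read 10.42, 10.25, 10.25 and 10.21 at 72 h and 10.13, 10.56, 10.28, 10.54 and 10.14 at 96 h. The spread within the groups of 96 h (SD 0.21 in both) was large, and all groups overlapped. The difference between fractions was 0.35 ± 0.119 at 96 h (adjusted p = 0.0489) and 0.01 ± 0.093 at 72 h (adjusted p = 0.953), and the fall in non-invading cells was -0.29 ± 0.115 (adjusted p = 0.0829). The probe set numbered on its own chromosome gave 0.33 ± 0.113 (adjusted p = 0.0484) between fractions at 96 h and -0.35 ± 0.110 (adjusted p = 0.0321) in non-invading cells. In invading cells the change with time was 0.04 ± 0.115 (adjusted p = 0.827). Both calls rested on few samples: that between fractions was lost without invading replicate 2 or 4 or non-invading replicate 2 or 3 of 96 h (adjusted p = 0.104 to 0.112), and the fall without replicate 1, 2 or 3 of 72 h or replicate 2, 3 or 4 of 96 h (adjusted p = 0.112 to 0.208). The fall was also lost when only the compared groups entered the fit (adjusted p = 0.108). With a block for the replicate number in limma both calls were lost (adjusted p = 0.11 between fractions and 0.141 for the fall).

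Hspd1, which encodes the HSP60 chaperonin of the mitochondrial matrix, had the largest change of the 9 genes. Non-invading samples read 11.52, 11.47, 11.30 and 11.43 at 72 h and 11.63, 11.73, 11.81, 11.73 and 11.71 at 96 h. Invading samples read 11.32, 11.34, 11.36 and 11.05 at 72 h and 12.09, 12.15, 12.07, 11.99 and 11.94 at 96 h. At 96 h every invading sample was above every other sample of the study. The rise was 0.78 ± 0.068 in invading (adjusted p = 7.87e-07, above 99.2% of all genes) and 0.29 ± 0.068 in non-invading cells (adjusted p = 0.00579). Invading cells exceeded non-invading ones by 0.33 ± 0.056 at 96 h (adjusted p = 0.00144), whereas at 72 h the difference was -0.16 ± 0.087 (adjusted p = 0.233). The invasion effect was larger at 96 h by 0.49 ± 0.097 (limma, adjusted p = 0.135), which missed the threshold here and passed it in 3 of the other settings (adjusted p = 0.0739 to 0.0897) and without replicate 3 of the invading samples at 72 h (0.0898) or replicate 5 at 96 h (0.0872).

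The probe set of Hspd1 numbered on its own chromosome gave the same rise in invading cells and other calls between fractions. Its non-invading samples read 11.04, 10.98, 10.73 and 10.76 at 72 h and 10.80, 11.13, 11.13, 11.34 and 11.11 at 96 h. Its invading samples read 10.67, 10.62, 10.54 and 10.25 at 72 h and 11.27, 11.50, 11.39, 11.10 and 11.21 at 96 h. All invading samples lay below the non-invading ones at 72 h, and at 96 h the fractions overlapped. The difference was -0.36 ± 0.113 at 72 h (adjusted p = 0.0537) and 0.19 ± 0.102 at 96 h (adjusted p = 0.202). The rise was 0.78 ± 0.112 in invading (adjusted p = 7.19e-05, ratio 1.71) and 0.23 ± 0.112 in non-invading cells (adjusted p = 0.172).

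Hspa9, the mitochondrial HSP70 that pulls proteins through the import channel and is also known as mortalin, was higher in invading cells at 96 h. Non-invading samples read 11.23, 11.28, 11.15 and 11.15 at 72 h and 11.25, 11.22, 11.27, 11.38 and 11.19 at 96 h. Invading samples read 11.42, 11.48, 11.35 and 11.27 at 72 h and 11.63, 11.61, 11.55, 11.61 and 11.46 at 96 h. At 96 h the fractions did not overlap, as for 4 of the 9 genes at that time (18.2% of all genes), and at 72 h they overlapped through single samples. The difference was 0.31 ± 0.055 at 96 h (adjusted p = 0.00193) and 0.18 ± 0.069 at 72 h, which just missed the threshold (adjusted p = 0.104) and passed it under 8 of 12 other settings, the lowest adjusted p being 0.0392. In invading cells Hspa9 rose by 0.19 ± 0.058 (adjusted p = 0.0215), a call lost when the values were quantile normalized again (adjusted p = 0.37). The change in non-invading cells was 0.06 ± 0.058 (adjusted p = 0.52).

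**Figure D3:**
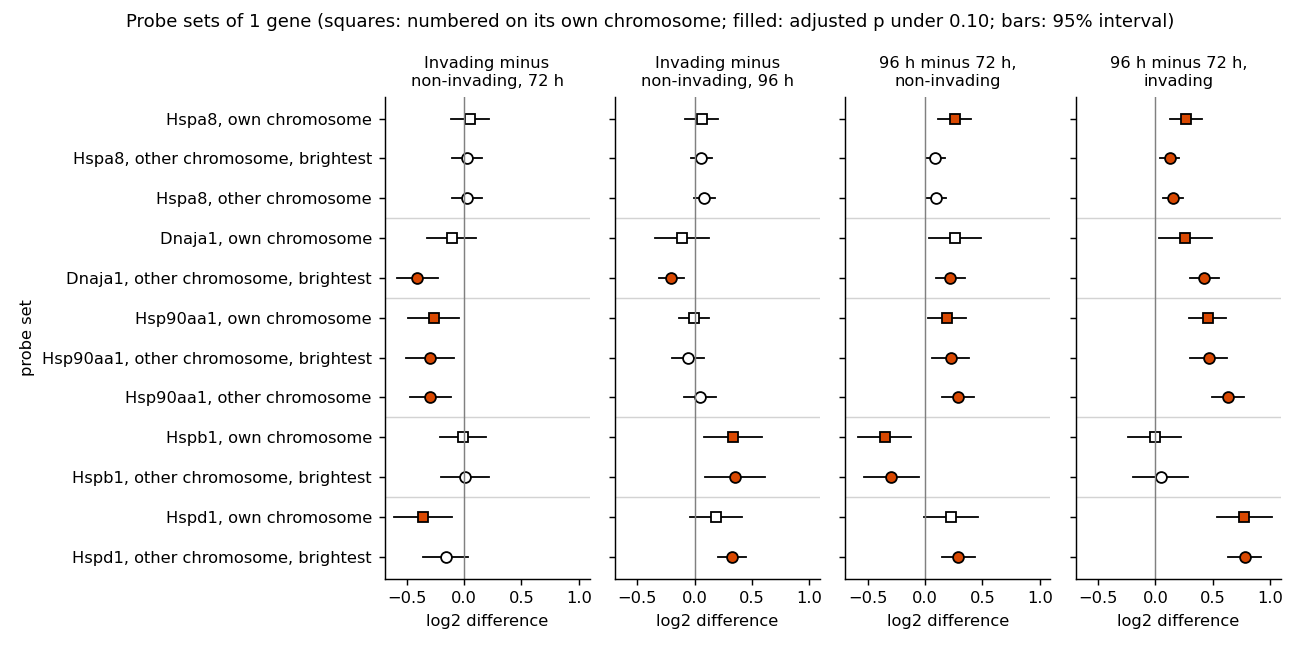
Log2 differences (horizontal axis) of all probe sets with 1 symbol for the 5 genes that have several, in the 4 comparisons, with 95% confidence intervals. Squares are probe sets numbered among genes of the gene's own chromosome, circles those numbered elsewhere, and filled symbols passed at an adjusted p under 0.10. Every probe set of Hspa8, Dnaja1, Hsp90aa1 and Hspd1 rose in the invading fraction and neither of Hspb1 did, and the 2 of Dnaja1 and of Hspd1 differ in their calls between fractions.

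Some samples were the lowest of their group for most of the 9 genes. Replicate 4 of the invading fraction at 72 h was the lowest of its group for 7 of the 9 genes, replicate 4 of the non-invading fraction at 72 h for 6, and replicate 5 of the invading fraction at 96 h for 7. The median signal of these arrays was 6.52 (inside the range of its group), 6.65 (the highest of its group) and 6.46 (the lowest of its group). Without replicate 4 of the invading fraction at 72 h, 7 genes still rose with time in invading cells, with Hspd1 at 0.71 ± 0.061 (adjusted p = 2.11e-06) and Hsph1 at 0.48 ± 0.087 (adjusted p = 0.000823). Between fractions at 72 h, Hspd1 then differed by -0.09 ± 0.071 (adjusted p = 0.45), and Dnaja1 (-0.34) and Hsp90aa1 (-0.20) still passed. Over all 18 samples 29 of the 36 pairs of genes correlated positively (median r 0.44, range -0.51 to 0.92). After the group means were removed 29 pairs did so (median r 0.36, range -0.23 to 0.75). Lowest samples and positive pairs were not counted over all genes, so neither is shown to be particular to the heat shock genes. The samples share their culture line and array processing, and these values are descriptions.

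**Figure D4:**
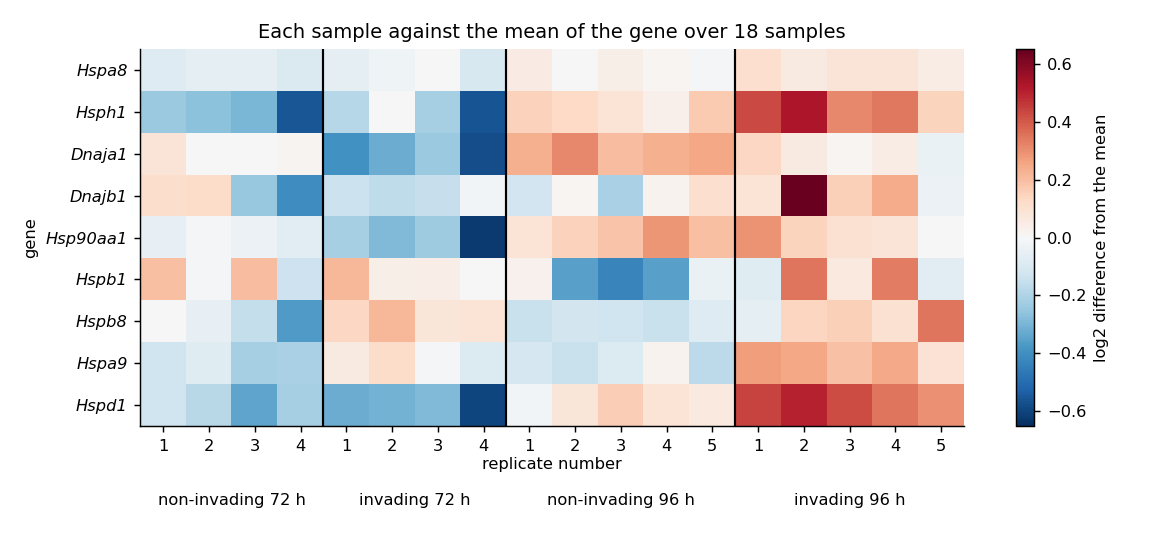
Log2 difference of each sample from the gene's mean over all 18 samples (colour), with genes in rows and samples in columns by group and replicate number. Invading samples at 96 h are above the mean for Hspa8, Hsph1, Hspa9 and Hspd1, and replicate 4 of the invading fraction at 72 h is the lowest of its group for 7 of the 9 genes.

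The genes whose signal followed each heat shock gene most closely over the 18 samples were named by Pearson r. Zmpste24 (r = 0.987), Ap5m1 (0.981) and Phtf1 (0.977) were closest to Dnaja1. Nfyb (0.971), Ube2k (0.967) and Serbp1 (0.960) were closest to Hspd1. For Hsph1 they were Atp6v1c1 (0.962), Ctsl (0.935) and Rab21 (0.926), and for Hsp90aa1 they were Slk (0.954), Slc5a3 (0.952) and Dnajc10 (0.952). Hspa9 was followed by Prl2c5 (0.955), Nqo1 (0.953) and Gja1 (0.933), Hspa8 by Rragb (0.949), Cdc5l (0.932) and Atp6ap2 (0.926), and Hspb8 by Arhgef7 (0.926), Rab34 (0.922) and Gatd1 (0.916). The closest genes to Hspb1 (Fbxl14, 0.834) and Dnajb1 (Pcbp2, 0.799) were less close. All samples fall in the same 4 groups, so these correlations follow the group differences.

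The heat shock factors and the partners of these chaperones were read from lists of known function. Hsf1, the main activator of heat shock genes, had no probe set with its symbol alone and was not analysed. Hsf2, a second activator of these genes, rose with time in both fractions, by 0.60 ± 0.078 in non-invading (adjusted p = 6.13e-05) and 0.75 ± 0.078 in invading cells (adjusted p = 3.2e-06). It did not pass between fractions, with -0.08 ± 0.086 at 72 h and 0.07 ± 0.071 at 96 h. Hsbp1, which binds the trimers of heat shock factors, rose by 0.26 ± 0.052 in non-invading (adjusted p = 0.00232) and 0.15 ± 0.052 in invading cells (adjusted p = 0.0401), and at 96 h was lower in invading cells, at -0.22 ± 0.042 (adjusted p = 0.00286). Hsf4 was higher in invading cells at both times, by 0.51 ± 0.111 (adjusted p = 0.0129) and 0.29 ± 0.055 (adjusted p = 0.003). Hsf3 and Hsf5 passed in no comparison.

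HSP90 co-chaperones, which load clients on HSP90 or set its ATP cycle, included more genes that rose over time than that did not, in both fractions. Of 15 genes 9 rose in the non-invading and 10 in the invading fraction and 0 fell, where 15.4% and 18.2% of all genes rose, and the median differences were 0.32 and 0.36. In invading cells Ppid, a prolyl isomerase, rose by 0.89 ± 0.076 (adjusted p = 6.04e-07) and Chordc1 by 0.83 ± 0.113 (adjusted p = 4e-05). Ptges3, the p23 protein, rose by 0.73 ± 0.058 (adjusted p = 3.72e-07) and Sugt1 by 0.69 ± 0.053 (adjusted p = 2.78e-07). Between fractions at 72 h 6 of the 15 were lower and 3 higher in invading cells (13.5% and 13% of all genes), with Chordc1 (-0.56 ± 0.137, adjusted p = 0.0209), Ppid (-0.52 ± 0.090, adjusted p = 0.00478), Cdc37l1 (-0.47 ± 0.089, adjusted p = 0.00682) and Cacybp (-0.40 ± 0.067, adjusted p = 0.00394) lowest. At 96 h 7 were higher and 4 lower (16.7% and 14.7% of all genes), with the stress- and steroid-responsive immunophilin Fkbp5 highest at 0.48 ± 0.071 (adjusted p = 0.000737). Of these genes, Ptges3 was read from a probe set numbered on another chromosome.

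Exchange factors and quality control partners of HSP70 that passed between fractions were all higher in invading cells. Of 9 genes 4 were higher and 0 lower in invading cells at 72 h, and 8 were higher and 0 lower at 96 h, with medians of 0.24 and 0.25, where 13% and 16.7% of all genes were higher. Bag3, which links Hspb8 to HSP70, was higher by 0.45 ± 0.080 (adjusted p = 0.00528) and 0.52 ± 0.060 (adjusted p = 0.000175). St13, which stabilizes the substrate-bound state of HSP70, was higher by 0.39 ± 0.069 (adjusted p = 0.00529) and 0.38 ± 0.049 (adjusted p = 0.000294). The ubiquitin ligase Stub1 was higher by 0.38 ± 0.099 (adjusted p = 0.0252) and 0.28 ± 0.055 (adjusted p = 0.00373). Over time 3 of the 9 rose and 1 fell in the non-invading fraction, and 4 rose and 1 fell in the invading one, with medians of 0.00 and 0.05, where 15.4% and 18.2% of all genes rose.

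Among other HSP70 genes and J-domain proteins, calls over time went in both directions. Of 8 other cytosolic HSP70 and HSP110 genes (Hspa1b had no probe set of its own) 0 passed with time in non-invading cells, while in invading cells 3 rose and 1 fell. Of all genes 15.4% rose and 12.2% fell in non-invading cells, and 18.2% rose and 16.7% fell in invading cells. Hspa1a, the inducible HSP70, rose there by 0.48 ± 0.168 (adjusted p = 0.045), Hspa4 by 0.33 ± 0.058 (adjusted p = 0.000502) and Hspa14 by 0.27 ± 0.081 (adjusted p = 0.0201), and Hspa12b fell by 0.22 ± 0.072 on the log2 scale (adjusted p = 0.0317). Of 21 other J-domain genes of cytosol and nucleus 8 rose and 2 fell in non-invading cells, and 8 rose and 3 fell in invading cells, against 15.4% and 18.2% of all genes that rose. Dnajb4 rose by 0.59 ± 0.102 (adjusted p = 0.000625) and 0.83 ± 0.102 (adjusted p = 1.56e-05), and Dnajc21 by 0.36 ± 0.079 (adjusted p = 0.00344) and 0.71 ± 0.079 (adjusted p = 5.58e-06). Dnajb12, an endoplasmic reticulum membrane protein that recruits Hspa8, fell in both fractions, with -0.27 ± 0.050 (adjusted p = 0.00125) and -0.40 ± 0.050 (adjusted p = 1.84e-05). Of 7 other small heat shock proteins 1 was higher and 1 lower in invading cells at each time. Of all genes 13% were higher and 13.5% lower at 72 h, and 16.7% and 14.7% at 96 h. Cryab was lower at both times, at -0.41 ± 0.142 (adjusted p = 0.0716) and -0.29 ± 0.063 (adjusted p = 0.00603). Hspb6 was higher at 96 h by 0.45 ± 0.086 (adjusted p = 0.00278), and its change with time in non-invading cells was -0.36 ± 0.093 (adjusted p = 0.0103).

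Of 12 other mitochondrial chaperone and import motor genes 2 rose and 1 fell in the invading fraction, and 2 rose and 0 fell in the non-invading one, near the 18.2% and 15.4% of all genes that rose. Hspe1, the lid of the Hspd1 chamber, changed by 0.09 ± 0.066 in invading (adjusted p = 0.339) and -0.01 ± 0.066 in non-invading cells (adjusted p = 0.925), read from a probe set numbered on another chromosome. Between fractions 3 of the 12 were higher and 1 lower at 72 h, and 6 were higher and 2 lower at 96 h, where 13% and 16.7% of all genes were higher. Hscb, the J-domain protein of iron-sulfur cluster assembly, was higher in invading cells by 0.49 ± 0.079 (adjusted p = 0.00359) and 0.29 ± 0.071 (adjusted p = 0.0115). Trap1, the mitochondrial HSP90, was higher at 96 h by 0.21 ± 0.057 (adjusted p = 0.0204). Among 9 mitochondrial proteases and their partners Yme1l1, of the inner membrane, rose by 0.41 ± 0.079 in non-invading (adjusted p = 0.00144) and 0.64 ± 0.079 in invading cells (adjusted p = 1.53e-05), and Clpx, the unfoldase of the matrix protease, by 0.28 ± 0.092 (adjusted p = 0.0404) and 0.48 ± 0.092 (adjusted p = 0.00097).

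Among other folding machines, the 9 genes of the cytosolic chaperonin TRiC included 2 that rose in non-invading and 4 that rose in invading cells, and 0 fell. Of all genes 15.4% and 18.2% rose in these fractions, shares that also stand behind the counts of the next lists. Cct4 rose by 0.44 ± 0.060 in each fraction (adjusted p = 9.47e-05 and 4.16e-05). Of 6 prefoldin genes, which deliver actin and tubulin to TRiC, 3 rose in non-invading and 2 in invading cells. Of 17 chaperones of the endoplasmic reticulum 8 rose in non-invading and 12 in invading cells and 0 fell, with medians of 0.17 and 0.31. In none of these lists did a gene pass the test of the difference between the invasion effects of the 2 times.

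**Figure D5:**
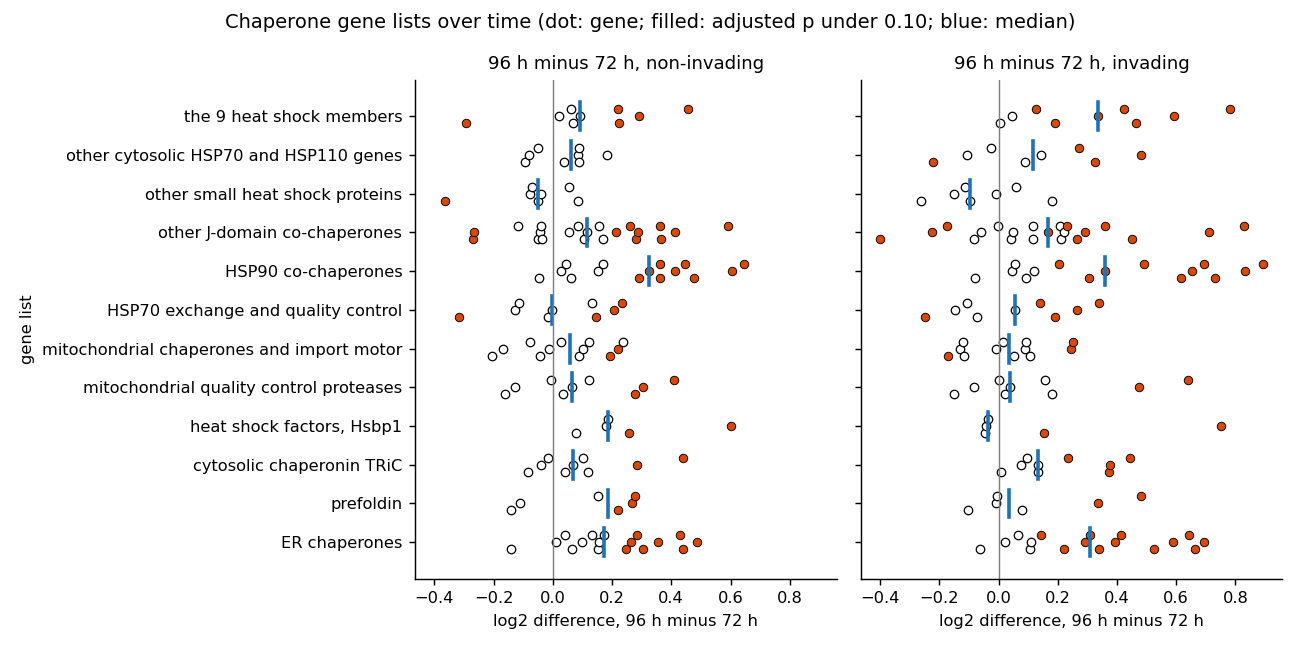
Log2 differences of 96 minus 72 h (horizontal axis) for the 9 heat shock genes and 11 lists of chaperones and their regulators (rows), in each fraction. Every dot is a gene, filled dots passed at an adjusted p under 0.10 and blue lines mark the medians. The medians of the HSP90 co-chaperones (0.32 and 0.36) lie furthest right among the listed groups in both fractions, and the 9 heat shock genes reach 0.34 in the invading fraction.

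Immediate early genes, which respond to the handling of cells within minutes, were read as a further check on the samples. Of 14 such genes 0 rose and 3 fell with time in the non-invading fraction (15.4% and 12.2% of all genes). In the invading one 1 rose and 1 fell (18.2% and 16.7% of all genes). There Atf3 rose by 1.03 ± 0.275 (adjusted p = 0.0103) and Junb changed by -0.55 ± 0.129 (adjusted p = 0.00421). The mean signal over these genes was 8.10 to 8.85 in non-invading and 8.50 to 8.80 in invading samples at 72 h, and 8.20 to 8.66 and 8.31 to 8.87 at 96 h. Between fractions 1 was higher and 0 lower in invading cells at 72 h (13% and 13.5% of all genes). At 96 h 4 were higher and 1 lower (16.7% and 14.7% of all genes). Their part in the results was not tested. A block of 6617 probe sets without a gene name had sample medians of 5.37 to 5.59 in invading and 5.81 to 6.20 in non-invading samples, whereas the medians over probe sets with 1 symbol lay between 7.14 and 7.20 in all samples. Centring every array on its median therefore moved the median difference of all genes between fractions from 0.04 to 0.12 at 72 h and from 0.02 to 0.14 at 96 h.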

How the data were processed

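MLg fibroblasts in the invading and non-invading fractions of a collagen gel assay were profiled at 72 h (4 samples per fraction) and 96 h (5 samples per fraction). The deposited values are log2 signals made by the authors with RMA (Affymetrix Expression Console, version 1.2 in the submitters' processing notes). They were normalized between arrays and summarized per probe set, spanned 2.94 to 14.7 and were used as they are. Precision is limited by how many arrays there are.

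The array annotation gave 21789 probe sets with exactly 1 symbol, and the brightest stood for a gene. For the fractions, limma 3.58.1 under R 4.3.3 was used (lmFit and eBayes, no covariates), in a separate fit per time. Times, and the difference of the invasion effect between times, were compared in 1 fit over all 18 samples. Adjusted p-values are those of Benjamini and Hochberg over 35556 probe sets, with a threshold of 0.10. Scripts were tested on simulated data. The genes and lists were chosen with earlier results of these data known. Partners named are up to 4 per list and comparison, by absolute log2 ratio among those that passed, together with Hsf1, Hsf2, Hspe1 and a few members picked for their role after their values had been seen. Likeness is Pearson r over 18 samples. Alternatives were other scalings, filters, variance models, probe sets, thresholds and fits, a replicate block, and each sample left out. Reading each gene from its own chromosome was added after seeing the data. Whether samples of 1 number belong together is not stated in the labels.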

Additional observations from a re-analysis of the deposited data

Results flagged for a closer look

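In 3 of 56 sets of group values of the heat shock genes (the brightest and the own-chromosome probe sets) 1 sample stood apart from its group of 4 by Dixon's ratio of gap to range, against a critical value of 0.829. Chance alone gives about 1 in 20. Hspd1 was lowest in replicate 4 of the invading fraction at 72 h (11.05, next 11.32, ratio 0.886). The own-chromosome probe set of Hsp90aa1 was lowest in the same sample (10.72, next 11.08, ratio 0.845). The own-chromosome probe set of Dnaja1 was highest in replicate 3 of that group (9.40, next 9.09, ratio 0.832). Without replicate 4 of that group, Hspd1 still rose with time in invading cells (0.71) and Hsp90aa1 by its brightest probe set was still lower in invading cells at 72 h (-0.20, adjusted p = 0.0559).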

How the results depend on the processing

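Of the 9 genes, 3 passed between fractions at 72 h (1 at an adjusted p under 0.05, and 1 to 4 without single samples, 1 without non-invading replicate 3), 6 at 96 h (4 to 7 over all settings), 5 with time in the non-invading fraction (4 to 6, and 3 to 5 without single samples, 3 without non-invading replicate 4 of 96 h) and 7 in the invading one (5 to 7). The difference between times was passed by 0, but by 1 (Hspd1) with a signal above 100, with an intensity trend and robust estimation, and when unnamed probe sets of low number were dropped, and by 0 to 1 without single samples. Whether the replicate numbers pair the samples was not settled. The study names a paired t-test for receptor genes read from these arrays, and limma without mention of pairing for its genewise tests. The fits used here as the main ones are unpaired. Deviations of samples with the same number correlated between fractions at -0.07 to 0.09 at 72 h and 0.05 to 0.17 at 96 h. The same number was the best match for 1 of 4 invading samples at 72 h and 4 of 5 at 96 h. With a replicate block the counts were 3, 5, 4, 7 and 0. The block ended the calls of Hspb1 at 96 h (adjusted p = 0.11) and with time in the non-invading fraction (0.141) and gave -0.0107 and -0.0256 for Hspb8 with time in non-invading and invading cells.

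All values that changed sign were small and had not passed. Dnajb1 at 72 h gave 0.036 when quantile normalized again, 0.0661 centred on the median and 0.0248 centred on named probe sets. Hspb1 at 72 h gave -0.0088 and with time in invading cells -0.0063 from its own chromosome. Hsp90aa1 at 96 h gave 0.0633 centred on the median. Quantile normalization gave -0.0215 (Hspb8) and -0.0043 (Hspa9) with time in non-invading cells, -0.0128 (Hspb1) and -0.0615 (Hspb8) in invading cells, and -0.0017 for Hspa8 in the difference between times. Hspb8 gave -0.0129 with time in invading cells centred on named probe sets and 0.0244 in the difference between times centred on the median. Without single samples the ranges that crossed 0 were -0.1138 to 0.0605 (Dnajb1, 72 h), -0.055 to 0.057 (Hspb1, 72 h), -0.0335 to 0.1408 (Dnajb1, time, non-invading), -0.0533 to 0.068 (Hspb8, time, non-invading), -0.0125 to 0.0943 (Hspb1, time, invading), -0.047 to 0.0547 (Hspb8, time, invading) and -0.068 to 0.0595 (Hspb8, difference between times). The cause was not tested. Counts of all genes called between fractions at 96 h rose from 6255 to 10699 when arrays were centred on their median, with 3322 and 9120 of them higher. No signal over background was given, so the arrays set no detection limit here.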
